A study of Homo sapiens with 30 samples.

Results

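The contractile actin cytoskeleton genes described here are 10 genes picked by symbol: the actins ACTA2 and ACTG2, the calponin family genes TAGLN, CNN1, and CNN2, the myosin light chain gene MYL9, the tropomyosin genes TPM1, TPM2, and TPM4, and the caldesmon gene CALD1. All 10 symbols were found among the 26228 genes of the expression table, and 7 of them were among the 11575 genes that averaged 1 FPKM or more across all 30 libraries and were tested. Poly(A) RNA-Seq was performed on SH-EP, an established human neuroblastoma (NB) cell line, and on 4 stable lines made from it by retroviral transfer of MYCN driven from an exogenous promoter, either WT or with the T58A, S62A, or both substitutions (T58A S62A, or double mutant). T58A and S62A replace MYCN residues whose phosphorylation controls its turnover. Cells were exposed for 6 hours to DMSO or to 1 μM CYC065, an inhibitor of CDK2 and CDK9, which gives 10 groups of 3 libraries. The parental SH-EP group carries no MYCN transgene, each transgenic line is 1 derived line, and the labels do not say that the 3 libraries of a group came from separate cultures, so p-values measure only the spread between these libraries.

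Contractile cells pull on their surroundings through bundles of actin filaments, or stress fibres, along which myosin II motors pull. Tropomyosins lie along the filament and control the access of myosin and of severing proteins, and caldesmon and the calponins, including the transgelin encoded by TAGLN, bind the filament and stabilize it or restrain myosin. Many of these genes are transcribed through serum response factor (SRF), which binds a DNA element called the CArG box, and its actin-sensing coactivators of the MRTF family, so a high level of ACTA2 and TAGLN is a familiar mark of myofibroblast-like mesenchymal cells.

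In GRCh37, the genes lie at chromosome 10, 90694831 to 90751096 on the minus strand (ACTA2), chromosome 11, 117070086 to 117078180 (TAGLN), chromosome 19, 1026585 to 1039067 (CNN2), chromosome 15, 63334819 to 63364114 (TPM1), chromosome 9, 35681989 to 35690053 on the minus strand (TPM2), chromosome 19, 16177831 to 16213812 (TPM4), and chromosome 7, 134429003 to 134655480 (CALD1), with the plus strand where none is named. All 10 are protein coding. RefSeq promoter windows, from 250 bases before a start site to 50 bases after it, were found for 8 of the 10 genes and numbered 15 (build GRCh38.p14, not the hg19 of the expression table), with TAGLN and MYL9 having no entry. A CArG box, written here as 2 C, 6 bases that are A or T, and 2 G and searched on both strands, was present in 3 of the 15 windows, against 1.29% of all 35116 promoter windows of 300 bases. The E-box CACGTG, a sequence that MYC proteins can bind, was in 0 of the 15 windows and in 7.26% of all windows. The element was found in CNN2 (89 bases before the start), in 1 of the TPM4 windows (173 bases before it), and at 2 places in ACTG2 (110 and 73 bases before it). These letters are a match and not a measured binding site, and a window without the match may hold a variant of the element. The 250 bases upstream of those 3 starts are shown 5′ to 3′ because they carry the element through which the group is best known, with the CArG boxes in capitals, at chr19:1026358-1026607, chr19:16067288-16067537, and chr2:73892758-73893007, all on the plus strand.
CNN2: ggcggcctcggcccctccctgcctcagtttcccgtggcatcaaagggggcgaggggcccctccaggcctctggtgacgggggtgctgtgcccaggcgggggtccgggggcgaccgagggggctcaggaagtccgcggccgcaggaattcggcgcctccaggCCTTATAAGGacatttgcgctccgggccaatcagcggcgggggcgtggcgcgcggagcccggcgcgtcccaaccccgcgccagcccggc
TPM4: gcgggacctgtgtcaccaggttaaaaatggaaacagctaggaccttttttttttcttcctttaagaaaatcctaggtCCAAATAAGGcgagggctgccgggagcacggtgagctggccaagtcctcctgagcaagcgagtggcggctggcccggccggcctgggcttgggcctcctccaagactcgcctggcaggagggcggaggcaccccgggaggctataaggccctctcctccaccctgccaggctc
ACTG2: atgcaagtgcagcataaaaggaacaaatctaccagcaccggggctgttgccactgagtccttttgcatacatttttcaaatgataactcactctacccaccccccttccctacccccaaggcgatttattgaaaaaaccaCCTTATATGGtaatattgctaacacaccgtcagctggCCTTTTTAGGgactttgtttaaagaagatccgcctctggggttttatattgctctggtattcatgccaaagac

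Since FPKM carry no read counts, depth is known only in relative terms, with 0.466 to 1 of the deepest library in DMSO and 0.293 to 0.554 in CYC065. MYCN was listed at 0 in the 6 SH-EP libraries and at 5.08 to 20.1 FPKM in the 24 others. All 6 SH-EP libraries share an index sequence with a library of the MYCN lines, so a pool difference and a line difference cannot be told apart for SH-EP. The 9 of 9 mesenchymal NB markers were at 1 FPKM or above in every group, with a summed level of 4054 to 4230 FPKM in SH-EP and 1897 to 2666 FPKM in the 4 MYCN lines in DMSO. Of 13 smooth and striated muscle markers 2 (SMTN and TNNT1) reached 1 FPKM, and the list summed to 44.7 to 45.5 FPKM in SH-EP and 18.4 to 26.7 FPKM in the MYCN lines in DMSO. MYH11 was at 0.0320 FPKM or below and MYOCD was listed at 0 in all 30 libraries. Of 10 neuroblast markers 2 or 3 reached 1 FPKM. Their sums in DMSO were 89.1 to 94.0 FPKM in SH-EP, 68.4 to 80.4 in WT, and 85.4 to 94.3 in T58A. They were 54.5 to 58.3 FPKM in S62A and 76.8 to 95.1 in T58A S62A. The mesenchymal and muscle marker sums were thus lower than in SH-EP in every MYCN line, and the neuroblast sum in WT and S62A. The part of these sums in the results below was not tested. The single markers moved unequally. In the mean of the MYCN lines against SH-EP, the log2 change in deposited FPKM was -1.70 for TNNT1 and -0.17 for SMTN. For the mesenchymal markers it ran from -3.03 (FN1) to -0.00024 (YAP1). For the neuroblast markers that were tested, GATA3 and HAND2, it was -0.52 and -0.28. Immune and endothelial markers had 0 of 7 at 1 FPKM, and their sum was at most 0.628 FPKM.

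In DMSO, 4 of the 7 tested genes were lower in every MYCN line than in SH-EP on the deposited FPKM scale: ACTA2, TAGLN, TPM1, and CALD1. TPM2 was higher in every line on that scale, CNN2 was higher in S62A and T58A S62A, and TPM4 differed least. Between SH-EP and the mean of the MYCN lines, the log2 change in FPKM was -1.72 ± 0.10 (SE) for TAGLN, -1.35 ± 0.04 for CALD1, -1.06 ± 0.06 for ACTA2, -0.75 ± 0.03 for TPM1, -0.09 ± 0.03 for TPM4, 0.22 ± 0.05 for CNN2, and 0.77 ± 0.05 for TPM2. Against SH-EP, 5 of the 7 were lower and 1 higher in WT and in T58A, and 4 were lower and 2 higher in S62A and in T58A S62A (limma on log2(FPKM + 0.1), adjusted p under 0.05 over all tested genes). Of all tested genes, 22.6%, 23.3%, 23.4%, and 24.1% were lower in WT, T58A, S62A, and the double mutant, and 31.6%, 30.9%, 31.0%, and 31.2% were higher. The median change of the 7 was -0.63, -0.90, -0.40, and -0.61 in the same order, against 0.07, 0.05, 0.06, and 0.06 for all tested genes. The 4 comparisons share the SH-EP libraries and are not independent of each other.

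The direction of CNN2 and TPM2 rested on the scaling. When FPKM were scaled to equal ERCC spike-ins, which were added by cell number, the median tested gene was lower than in SH-EP by a log2 change of -1.16 in WT and -0.88 in T58A, and -1.86 in S62A and -0.75 in the double mutant. On that scale 6, 6, 7, and 5 of the 7 were lower and 0 were higher, against 88.5%, 77.6%, 95.0%, and 69.7% of all tested genes lower. CNN2 then turned to -1.15, -0.84, -1.77, and -0.36, and TPM2 to -0.09, 0.12, -1.69, and -0.24. In limma on that scale, TPM2 passed the threshold only in S62A, with adjusted p of 0.646, 0.542, and 0.249 in WT, T58A, and the double mutant. CNN2 did not pass in the double mutant (0.119). Scaling multiplies all genes of a library by the same factor, so relative to the median gene the 2 scalings must give nearly the same values. In WT these were -1.19 and -1.21 for TAGLN and 1.09 and 1.07 for TPM2, which is no independent check. In bulk RNA, fewer cells with a transcript and less transcript per cell cannot be told apart.

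**Figure D1:**
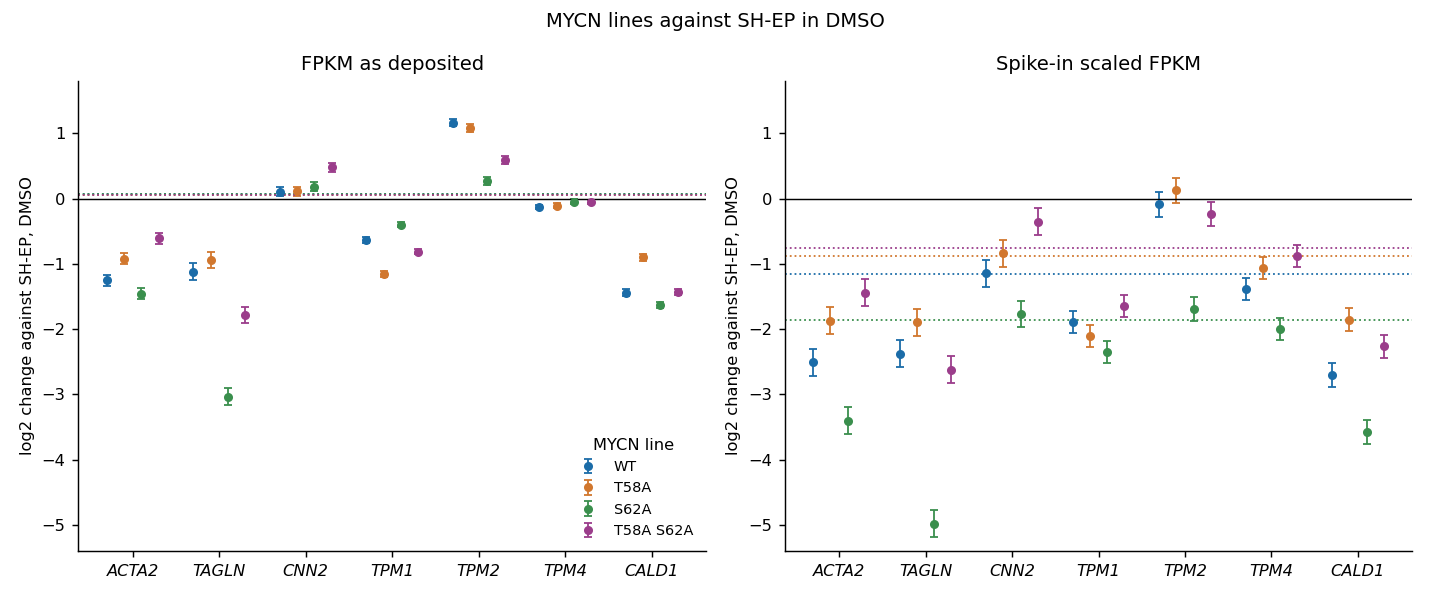
Log2 change of 7 genes between SH-EP and each MYCN line in DMSO (y axis, negative when lower in the MYCN line), on FPKM as deposited (left) and on spike-in scaled FPKM (right). Points are limma estimates with SE bars, colors are the lines, and dotted lines mark the median of all 11575 tested genes in each line. TAGLN, CALD1, ACTA2, and TPM1 lie below the dotted lines in both panels and TPM2 above them, while the sign of CNN2, and of TPM2 outside T58A, turns from positive to negative with the scaling.

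ACTA2 encodes smooth muscle α-actin, the actin isoform that marks smooth muscle and activated fibroblasts. The SH-EP libraries in DMSO were at 55.0, 53.2 and 51.3 FPKM. Those of the MYCN lines were at 24.6, 22.2 and 20.0 in WT and 28.9, 27.9 and 27.3 in T58A, and 18.1, 21.8 and 18.3 in S62A and 34.9, 34.5 and 34.8 in the double mutant. Every MYCN library lay below every SH-EP library, and among the MYCN lines T58A S62A was the highest and WT and S62A overlapped. The log2 change against SH-EP was -1.26 ± 0.08 (SE) in WT and -0.92 ± 0.08 in T58A, and -1.46 ± 0.08 in S62A and -0.61 ± 0.08 in the double mutant, with adjusted p of at most 8.62e-07. Of the genes tested in S62A, 4.46% had a lower change. The gene lies opposite STAMBPL1, ACTA2-AS1, and FAS, and the libraries were counted by strand. In the GENCODE annotation it also shares 1295 bases with a long non-coding RNA gene on its own strand, whose reads strand cannot separate.

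ACTG2, the γ-actin of enteric smooth muscle, was listed at 0 in 22 of 30 libraries, and its highest value was 0.615 FPKM. It was therefore not tested. The cytoplasmic actins ACTB and ACTG1, which encode proteins nearly identical to those of ACTA2 and ACTG2, were at 3559 and 2587 FPKM in SH-EP in DMSO, so reads that fit several actins may have been split among them and low actin values are uncertain.

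TAGLN encodes transgelin (SM22), an actin-bundling protein of the calponin family. It had the widest range of the group. In DMSO it was at 53.8, 50.6 and 47.3 FPKM in SH-EP, 25.4, 22.9 and 21.3 in WT and 24.1, 28.1 and 26.5 in T58A, and 6.23, 4.87 and 7.39 in S62A and 15.4, 12.1 and 16.5 in the double mutant. No MYCN library reached the SH-EP range, S62A lay below all other lines, T58A S62A lay below WT and T58A, and WT overlapped T58A. The log2 change was -1.12 ± 0.13 in WT and -0.94 ± 0.13 in T58A, and -3.03 ± 0.13 in S62A and -1.79 ± 0.13 in the double mutant, with adjusted p of at most 9.41e-07. In S62A, where the fitted level was 0.122 times that of SH-EP, 0.985% of the tested genes had a lower change. TAGLN shares 2498 bases with an unclassified transcript gene on its own strand.

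CNN2, a calponin found in many nonmuscle cells, was at 89.5, 90.7 and 81.1 FPKM in SH-EP and at 129.8, 116 and 117 in T58A S62A, which lay above all other lines in DMSO. WT (103, 93.2 and 85.1), T58A (89.6, 96.3 and 96.0), and S62A (95.7, 104 and 96.9) each overlapped their neighbour in the order of the levels, and WT and T58A overlapped SH-EP. The log2 change was 0.11 ± 0.07 in WT (adjusted p = 0.198) and 0.11 ± 0.07 in T58A (0.180), and 0.18 ± 0.07 in S62A (0.0261) and 0.48 ± 0.07 in the double mutant (2.17e-06), on the deposited scale only. The call in S62A was lost without SH-EP library 2 or without S62A library 1 (libraries are numbered 0 to 2 as in the table), where the change was 0.13 and 0.15, and WT passed the threshold without WT library 2 (0.17). CNN1, the calponin of differentiated smooth muscle, was listed at 0 in 25 of 30 libraries and reached at most 0.126 FPKM.

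MYL9 encodes a regulatory light chain of myosin II that is typical of smooth muscle. It was listed at 0 in 25 of 30 libraries and its highest value was 0.582 FPKM, in 1 WT library in CYC065. The 3 WT libraries in DMSO, at 0.137, 0.216 and 0.185 FPKM, were the only DMSO libraries with a value above 0. MYL12A and MYL12B, the related regulatory light chains of nonmuscle cells, were at 332 ± 6.26 and 274 ± 9.66 FPKM in SH-EP in DMSO (SD, n = 3). Values of 0 in a table without counts can be failed estimates, so no fold change is given for CNN1, MYL9, or ACTG2.

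**Figure D2:**
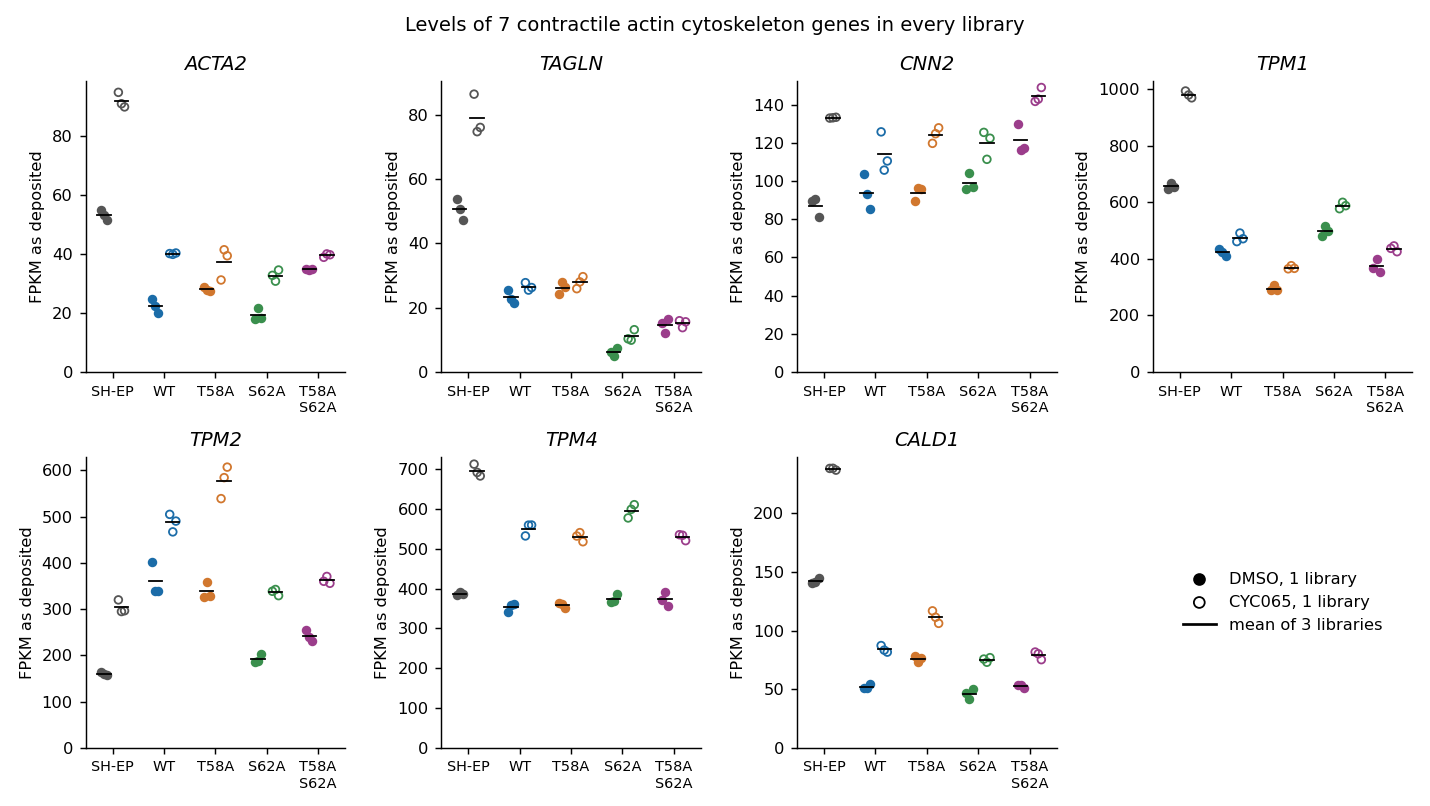
FPKM as deposited (y axis, linear from 0) of the 7 tested genes in each line (x axis), with 1 point per library, filled for DMSO and open for CYC065, and a bar at the mean of 3. SH-EP is highest for ACTA2, TAGLN, TPM1, and CALD1 and lowest for TPM2 in DMSO. The open points average above the filled ones in every line on this scale, and below them after spike-in scaling.

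TPM1, which encodes several long and short tropomyosins by alternative splicing, was the most abundant tropomyosin of SH-EP, at 647, 668 and 656 FPKM. It was at 435, 425 and 409.9 in WT and 289, 308 and 289 in T58A, and 481, 515 and 498 in S62A and 367, 401 and 353 in the double mutant. The 5 lines did not overlap in DMSO, in the order SH-EP, S62A, WT, T58A S62A, and T58A. The log2 change against SH-EP was -0.63 ± 0.04, -1.15 ± 0.04, -0.40 ± 0.04, and -0.82 ± 0.04 in WT, T58A, S62A, and the double mutant, with adjusted p of at most 1.87e-08.

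TPM2, β-tropomyosin, is also a stress fibre tropomyosin, and its level moved the other way on the deposited scale. It was at 164, 159 and 157 FPKM in SH-EP, 401, 340.0 and 339 in WT and 327, 359 and 329 in T58A, and 186, 188 and 202 in S62A and 254, 240.0 and 231 in the double mutant. WT and T58A overlapped, and both lay above T58A S62A, S62A, and SH-EP in that order without overlap. The log2 change was 1.16 ± 0.06 in WT and 1.08 ± 0.06 in T58A, and 0.26 ± 0.06 in S62A and 0.59 ± 0.06 in the double mutant, with adjusted p of at most 0.00058. As given above, it was negative in WT, S62A, and T58A S62A after spike-in scaling, but passed the threshold only in S62A. Of the tested genes, 96.8% had a lower change in WT.

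TPM4, a short tropomyosin of nonmuscle cells, ranged from 340.4 to 392 FPKM over the 15 DMSO libraries, and each line overlapped its neighbour in the order of the levels. The log2 change was -0.13 ± 0.04 in WT (adjusted p = 0.00375) and -0.11 ± 0.04 in T58A (0.0131). It was -0.05 ± 0.04 in S62A (0.261) and -0.05 ± 0.04 in T58A S62A (0.231), and on the spike-in scale it was -1.39, -1.06, -2.002, and -0.89 in the WT, T58A, S62A, and double mutant lines. The call in T58A was lost without T58A library 2 (-0.10), and that for the mean of the lines without SH-EP library 1 (-0.08).

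The tropomyosins can be compared within a library, where no scaling between libraries enters. Together with TPM3, which was not among the 10 genes, they summed to 1502 ± 21.0 FPKM in SH-EP in DMSO and to 1163 to 1362 FPKM in the mean of the 4 MYCN lines each. TPM1 made up 43.7% ± 0.211 of that sum in SH-EP, 40.5% ± 1.05 in S62A, 32.1% ± 0.941 in T58A S62A, 31.1% ± 0.446 in WT, and 24.7% ± 0.215 in T58A (SD, n = 3). The share of TPM2 was 10.7% ± 0.388 in SH-EP, 15.6% ± 0.429 in S62A, 20.8% ± 0.957 in T58A S62A, 26.4% ± 1.79 in WT, and 28.3% ± 0.668 in T58A. By mean share the lines thus had opposite orders for the 2 genes, but shares of the same sum are not independent of each other. The libraries of WT overlapped those of T58A S62A in the TPM1 share and those of T58A in the TPM2 share. The ratio of TPM2 to TPM1 FPKM was 0.244 ± 0.00882 in SH-EP, 0.386 ± 0.0203 in S62A, 0.649 ± 0.0481 in T58A S62A, 0.850 ± 0.0646 in WT, and 1.15 ± 0.0175 in T58A, with no overlap between any of the 5 lines. With 3 libraries against 3, an exact permutation test could not give a p under 0.1 for any pair, and none was computed. Tropomyosin transcripts share exons of similar sequence, so part of their reads could be assigned to another member.

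**Figure D3:**
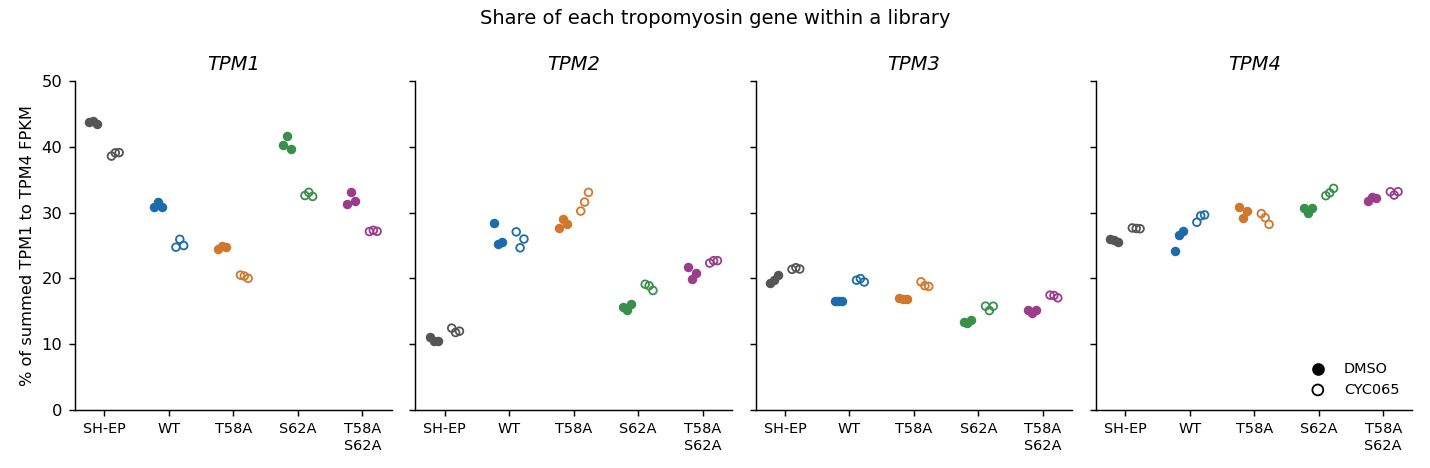
Share of each tropomyosin gene in the summed TPM1 to TPM4 FPKM of a library (y axis, percent) by line (x axis), with 1 point per library, filled for DMSO and open for CYC065. In DMSO, TPM1 goes from 43.7% in SH-EP to 24.7% in T58A, and TPM2 goes from 10.7% to 28.3%.

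CALD1 encodes caldesmon, which binds actin, myosin, and tropomyosin and slows actomyosin sliding. It was at 141, 141 and 144 FPKM in SH-EP, 51.1, 51.4 and 54.1 in WT and 78.1, 73.0 and 77.0 in T58A, and 46.9, 41.2 and 49.7 in S62A and 53.4, 53.6 and 50.8 in the double mutant. Every MYCN library was below the SH-EP range, T58A was above the other 3 MYCN lines, and WT and T58A S62A overlapped. The log2 change was -1.44 ± 0.05 in WT and -0.90 ± 0.05 in T58A, and -1.63 ± 0.05 in S62A and -1.43 ± 0.05 in the double mutant, with adjusted p of at most 6.75e-13. Relative to TPM4 in the same library, CALD1 was at a ratio of 0.367 ± 0.00725 in SH-EP and at 0.123 to 0.212 in the mean of the 4 MYCN lines each. CALD1 shares 615 bases with a long non-coding RNA gene on its own strand.

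Mutant and WT MYCN lines were compared with each other in DMSO, and these 3 comparisons share the WT libraries. In T58A, 1 of the 7 was lower (TPM1, -0.52 ± 0.04) and 2 were higher (CALD1, 0.54 ± 0.05, and ACTA2, 0.33 ± 0.08), against 13.0% and 10.7% of all tested genes. In S62A, 3 were lower (TAGLN, -1.91 ± 0.13, TPM2, -0.90 ± 0.06, and CALD1, -0.19 ± 0.05) and 1 was higher (TPM1, 0.24 ± 0.04), against 14.0% and 10.1%. In T58A S62A, 3 were lower (TAGLN, -0.67 ± 0.13, TPM2, -0.57 ± 0.06, and TPM1, -0.18 ± 0.04) and 2 were higher (ACTA2, 0.64 ± 0.08, and CNN2, 0.37 ± 0.07), against 14.2% and 9.43%. Within a library, the TAGLN to ACTA2 ratio was 0.422 ± 0.0629 in T58A S62A and 0.324 ± 0.0922 in S62A, against 1.04 ± 0.0205 in WT, 0.938 ± 0.0898 in T58A, and 0.950 ± 0.0279 in SH-EP (SD, n = 3). On spike-in scaled FPKM, where the median gene moved by 0.28, -0.71, and 0.39 in T58A, S62A, and the double mutant, the counts were 1 higher, 7 lower, and 3 higher, against 8.13% higher, 74.8% lower, and 23.2% higher. TPM1 then changed by -0.46 in S62A and by 0.24 in T58A S62A, opposite to the deposited scale. The T58A S62A calls for TAGLN (-0.25, adjusted p = 0.336), TPM2 (-0.15, 0.521), and TPM1 (0.24, 0.261) were lost on the spike-in scale, as were the T58A calls for TPM1 (-0.22, 0.410) and ACTA2 (0.64, 0.0523). The call for CALD1 in S62A was lost without S62A library 1 (-0.11). ACTA2 passed as lower in S62A without WT library 2 (-0.28) or S62A library 1 (-0.29), and TPM4 as higher in T58A S62A without T58A S62A library 2 (0.11).

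The effect of CYC065 was measured on spike-in scaled FPKM. Each library has 1 scaling factor, which in log2 was 0.94, 0.26, and 0.95 in the 3 T58A libraries in DMSO. Its error is shared by all genes, so the calls of the 7 are not independent of each other. All 7 tested genes were lower with CYC065 in each MYCN line and 6 of 7 in SH-EP, but most tested genes were too, with 75.7% lower in SH-EP, 93.7% in WT and 84.2% in T58A, and 90.2% in S62A and 76.3% in the double mutant. The median change of the 7 was -0.51, -1.25, -0.79, -0.79, and -0.82 in that order, against -1.06, -1.57, -1.08, -1.35, and -0.97 for all tested genes. In all but 2 of the 35 pairs of gene and line the change was nearer to 0 than that of the median tested gene, the exceptions being TAGLN in T58A and in T58A S62A. Averaged over the 5 lines, the log2 change was -1.03 ± 0.08 for TPM1, -0.98 ± 0.09 for CNN2, -0.97 ± 0.09 for TAGLN, -0.74 ± 0.09 for ACTA2, -0.70 ± 0.08 for TPM4, -0.69 ± 0.08 for CALD1, and -0.64 ± 0.08 for TPM2. On the deposited scale, where the median gene moved by 0.06 to 0.15, the same genes were higher: 7, 6, 6, 7, and 6 of the 7 in the SH-EP, WT, T58A, S62A, and double mutant lines, against 42.7%, 37.0%, 38.1%, 38.8%, and 38.6% of all tested genes higher. All 35 values were negative on the spike-in scale and positive on the deposited scale. Those that did not pass the threshold were TPM2 in SH-EP on the spike-in scale, and TAGLN in WT, T58A, and T58A S62A as deposited. DMSO and CYC065 libraries overlapped in 0 of the 35 pairs on the spike-in scale and in 2 as deposited, TAGLN in T58A and in the double mutant. Overlap was not counted over all tested genes, so these counts do not set the 7 apart. Most tested genes were lower on the spike-in scale. As deposited, 8238 (WT) to 8827 (SH-EP) of the 11575 passed the threshold in either direction.

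**Figure D4:**
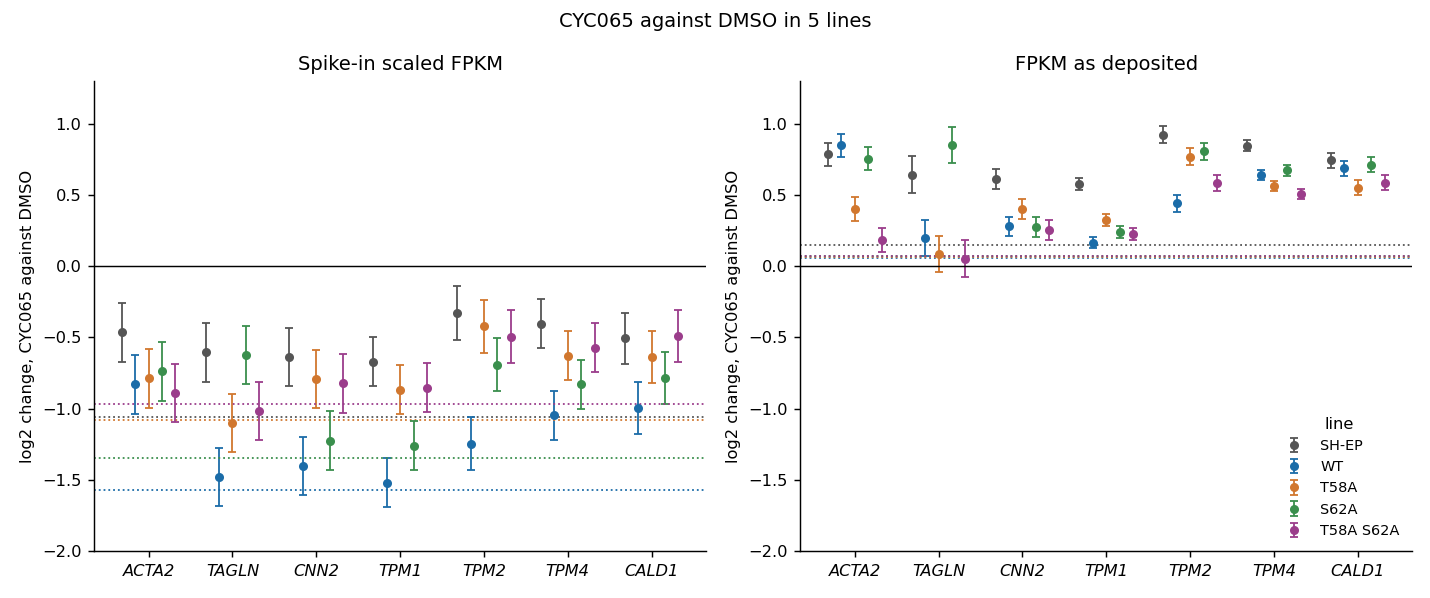
Log2 change with CYC065 against DMSO (y axis) of 7 genes in each of 5 lines, on spike-in scaled FPKM (left) and FPKM as deposited (right). Points are limma estimates with SE bars and dotted lines mark the median of all tested genes in each line. All points are below 0 on the left and above 0 on the right, and most lie above the dotted line of their own color.

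Of the actins and calponins, ACTA2 was at 177, 162 and 169 spike-in scaled FPKM in SH-EP in DMSO and 135, 130.4 and 105 in CYC065, a log2 change of -0.46 ± 0.21 (adjusted p = 0.0433). In WT it was at 40.5, 25.0 and 25.6 in DMSO and 18.8, 14.3 and 16.9 in CYC065, a change of -0.83 ± 0.21 (0.00048). TAGLN was at 173, 154 and 155 in SH-EP in DMSO and 123, 107 and 89.0 in CYC065, a change of -0.61 ± 0.20 (0.00948). In none of these pairs did DMSO and CYC065 libraries overlap. In WT, TAGLN was at 41.8, 25.7 and 27.3 in DMSO and 13.0, 9.18 and 11.1 in CYC065, also without overlap, a change of -1.48 ± 0.20 (2.03e-07). The TAGLN change was -1.10 in T58A and -1.02 in the double mutant but -0.62 in S62A, and CNN2 changed by -0.64 to -1.41 over the 5 lines. The TAGLN to ACTA2 ratio, which needs no scaling, went from 0.950 in SH-EP in DMSO to 0.862 ± 0.0464 in CYC065, from 1.04 to 0.662 ± 0.0280 in WT, and from 0.938 to 0.755 ± 0.0773 in T58A, each without overlap. The gap was narrow in SH-EP (lowest DMSO 0.922, highest CYC065 0.913) and in T58A (0.836 and 0.832). In WT it was wider (1.03 and 0.693). The ratio was 0.422 and 0.383 ± 0.0340 in the double mutant and 0.324 and 0.340 ± 0.0362 in S62A, and in both the DMSO and CYC065 libraries overlapped. Without SH-EP CYC065 library 2, 2 of the 7 passed as lower in SH-EP, with ACTA2 at -0.35, TAGLN at -0.48, CALD1 at -0.41, and TPM4 at -0.30 losing the call. ACTA2 in SH-EP also lost it without any of the SH-EP DMSO libraries or CYC065 library 1, TPM4 without any of the DMSO libraries, and TAGLN in S62A without S62A CYC065 library 1 (-0.47). With the 21 spike-ins of at least 50 FPKM in place of 55, 1 of the 7 was lower in SH-EP and 2 in T58A.

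Of the tropomyosins, TPM1 was at 2082, 2036 and 2153 spike-in scaled FPKM in SH-EP in DMSO and 1414, 1407 and 1134 in CYC065 (-0.67 ± 0.17, adjusted p = 0.00101). In WT it was at 715, 478 and 524 in DMSO and 216, 177 and 198 in CYC065 (-1.52 ± 0.17, 6.78e-09). TPM2 changed the least in SH-EP, from 529, 485 and 516 to 455, 423 and 347 (-0.33 ± 0.19, 0.109), which did not pass the threshold although the libraries did not overlap. Its change in WT was -1.25 ± 0.19 (7.26e-07), and in T58A, at -0.42 ± 0.19 (0.0379), the call was lost on leaving out any of the 6 libraries but DMSO library 1 (-0.32 to -0.44). In T58A S62A, the calls for TPM2 (-0.50) and CALD1 (-0.49) were lost without DMSO library 0 (-0.37 and -0.40) or CYC065 library 1 (-0.37 and -0.36). Within a library, the TPM1 share of tropomyosin FPKM was lower with CYC065 in all 5 lines without overlap, at 38.9% ± 0.296 in SH-EP, 25.2% ± 0.634 in WT and 20.3% ± 0.258 in T58A, and 32.7% ± 0.329 in S62A and 27.2% ± 0.103 in the double mutant (SD, n = 3). TPM4 and CALD1 changed by -0.40 to -1.05 and by -0.49 to -0.997 on the spike-in scale, with the value nearest to 0 in SH-EP for TPM4 and in T58A S62A for CALD1.

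The response to CYC065 in each MYCN line was then compared with that in SH-EP as an interaction on spike-in scaled FPKM, where all 4 comparisons share the SH-EP libraries. The 7 genes also share the error of the scaling factor of each library. In WT, 3 of the 7 fell by more than in SH-EP, namely TPM2 (difference -0.92 ± 0.26, adjusted p = 0.0336), TAGLN (-0.88 ± 0.29, 0.0417), and TPM1 (-0.85 ± 0.24, 0.0334), against 16.3% of all tested genes. The same difference was -0.52 for the median tested gene. In T58A, S62A, and the double mutant 0 of the 7 passed the threshold in limma, against 0.311%, 1.87%, and 0.199% of all tested genes lower. At an unadjusted p under 0.05, 0, 1, and 0 of the 7 were lower, against 3.48%, 13.6%, and 1.86% of all tested genes, and in WT 5 were, against 38.7%. The 3 calls were lost on leaving out any of 8 of the 12 libraries. The count was 5, with CNN2 and TPM4 added, without SH-EP CYC065 library 2, WT DMSO library 1, or WT CYC065 library 0, and it stayed at 3 without WT DMSO library 2. With the deposited FPKM, 4, 4, 3, and 6 of the 7 had a lower response in WT, T58A, S62A, and the double mutant than in SH-EP, against 18.1%, 14.0%, 13.7%, and 14.8% of all tested genes.

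Across the 10 group means of log2(FPKM + 0.1), as deposited, the 7 genes did not share 1 pattern. Pearson's r was 0.92 between ACTA2 and CALD1, 0.86 between TAGLN and CALD1, and 0.80 between ACTA2 and TAGLN. It was -0.34 between TPM1 and TPM2, 0.11 between TPM2 and TAGLN, and -0.01 between CNN2 and TAGLN. The 10 points are DMSO and CYC065 groups of the same 5 lines, and the values are given as a description. Among the other tested genes, those most like TAGLN were ANGPTL1, SDC3, and NES (r of 0.992, 0.969, and 0.966 over 10 group means), and those most like CALD1 were PXDN, CPED1, and the collagen gene COL3A1 (0.993, 0.988, and 0.987). Those most like ACTA2 were PTGS1, RGS5, and GLMP (0.987, 0.984, and 0.974), and those most like TPM2 were the chaperonin gene CCT3, HN1, and UBE2S (0.981, 0.961, and 0.959).

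The wider contractile machinery was described with 3 gene lists that hold none of the 10. Between the mean of the MYCN lines and SH-EP in DMSO, 10 of 16 tested genes of the contractile apparatus were lower and 2 higher, with a median log2 change of -0.27, and 15 of 21 stress fibre and focal adhesion genes were lower and 2 higher, with a median of -0.36. Of all tested genes 26.3% were lower and 34.6% higher, with a median of 0.06. The list of SRF and its cofactors had 1 of 9 lower and 4 higher (median 0.12). After spike-in scaling, 16, 21, and 8 were lower and 0 higher, against 91.2% of all tested genes lower. All 7 of the contractile genes described above passed the threshold in this comparison, 5 lower and 2 higher. By line on the deposited scale, 6, 11, 10, and 11 of the 16 contractile apparatus genes were lower in WT, T58A, S62A, and the double mutant. In the same order, 2, 3, 2, and 2 were higher. Of the 21 stress fibre genes, 16, 16, 10, and 14 were lower and 2, 2, 3, and 2 higher. Of all tested genes, 22.6%, 23.3%, 23.4%, and 24.1% were lower and 31.6%, 30.9%, 31.0%, and 31.2% higher.

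Named from these lists by size of change, MYLK, the kinase that activates myosin light chains, changed by -1.52 ± 0.06, the essential light chain gene MYL6 by -0.76 ± 0.05, and TPM3 by -0.65 ± 0.03. The stress fibre proteins SYNPO2, SYNPO, and CSRP1 changed by -2.52 ± 0.20, -1.43 ± 0.09, and -1.18 ± 0.04. FHL2, a LIM-domain cofactor of SRF, was higher, with 11.6, 12.0, and 10.7 FPKM in SH-EP and 25.0 to 38.7 FPKM over the 12 MYCN libraries (1.48 ± 0.06, and 0.23 on the spike-in scale, adjusted p = 0.156). SRF itself was at 16.3 to 18.9 FPKM in SH-EP and 22.8 to 27.6 FPKM in the MYCN lines (0.53 ± 0.06), a direction that turned to -0.71 after spike-in scaling, as did that of FHL1 (0.41 ± 0.04 and -0.84). MKL1 and MKL2, which encode the coactivators MRTF-A and MRTF-B, changed by -0.20 ± 0.19 (adjusted p = 0.389) and 0.12 ± 0.13 (0.441). MYOCD, their smooth muscle relative, was listed at 0 as given above.

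With CYC065, averaged over the 5 lines on the spike-in scale, 16 of 16 genes of the contractile apparatus, 21 of 21 of stress fibres, and 8 of 9 of SRF and its cofactors were lower, against 94.4% of all tested genes. Their medians were -0.67, -1.10, and -1.35, against -1.20 for all tested genes. As deposited, 14, 14, and 4 were higher, against 46.9% of all tested genes. MKL1 and MKL2 were among the genes that fell the most, with -3.54 ± 0.13 and -3.54 ± 0.11, and 2.32% and 2.29% of the tested genes had a lower change. MKL1 was at 3.61 to 5.04 FPKM in SH-EP in DMSO and at 0.762 to 0.963 in CYC065, and in WT at 3.85 to 4.95 and 0.460 to 0.658, with no overlap on the deposited scale. SRF changed by -1.65 ± 0.09 (-0.32 as deposited) and ELK4 by -2.53 ± 0.09. Other falls were in SYNPO (-3.03 ± 0.10), SYNPO2 (-2.19 ± 0.13), and the myosin phosphatase subunit PPP1R12A (-2.13 ± 0.08). MYL12B (-0.34 ± 0.08) and MYL6B (-0.42 ± 0.09) fell the least of the contractile apparatus list and ACTN4 (-0.43 ± 0.09) of the stress fibre list, and they were higher by 1.01, 0.92, and 0.91 as deposited.

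**Figure D5:**
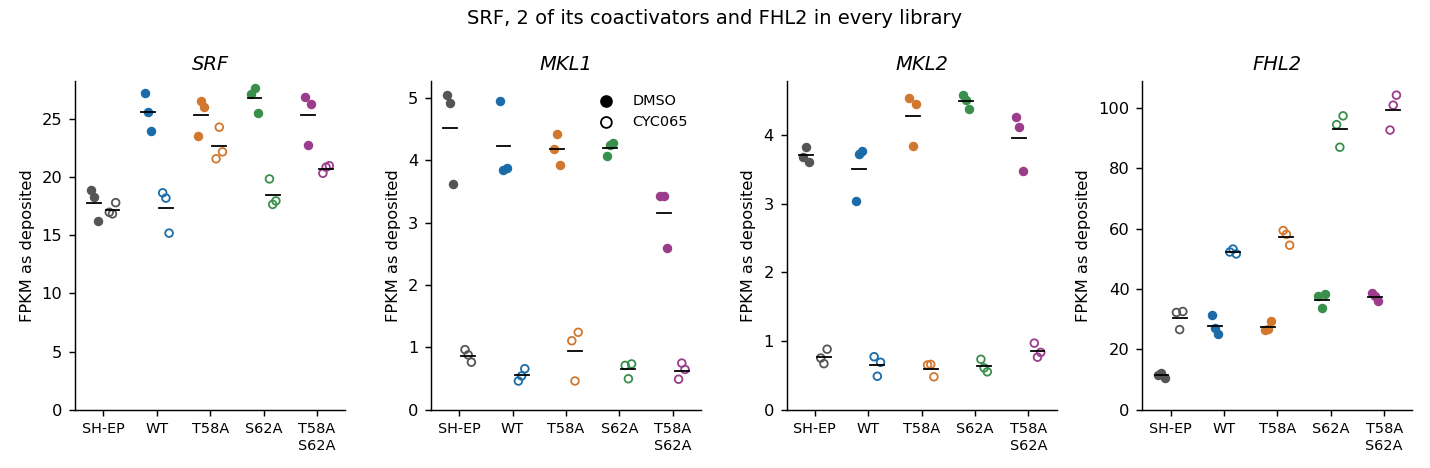
FPKM as deposited (y axis, linear from 0) of SRF, its coactivator genes MKL1 and MKL2, and FHL2 in each line (x axis), with 1 point per library, filled for DMSO and open for CYC065, and a bar at the mean of 3. MKL1 and MKL2 are lower in CYC065 in every line on both scalings, and FHL2 is above its SH-EP level in DMSO in every MYCN line on the deposited scale.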

How the data were processed

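RNA-Seq was performed on poly(A) RNA of 30 libraries, 3 for each of 10 groups. The authors aligned reads to hg19 with HISAT2 and deposited FPKM computed per gene with Cufflinks 2.2.1, counting by strand, for 26228 genes and 92 ERCC spike-ins, which had been added by cell number. FPKM were given without read counts, so depth is known only in relative terms and no counting interval is given. Columns were assigned to groups by name, and 0 columns of other samples were present.

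Genes averaging 1 FPKM or more were kept (11575), and log2(FPKM + 0.1) was fitted with limma 3.58.1 in R 4.3.3 over all 10 groups, with p-values adjusted over all tested genes by the Benjamini-Hochberg method and a threshold of 0.05. A fold change on this scale understates the change of low genes. Lines were compared in DMSO on deposited FPKM. CYC065 and the interaction were tested on FPKM scaled so that the 55 spike-ins averaging 1 FPKM or more had equal medians. In simulated data for WT against SH-EP over 11575 genes, 79 of 100 genes changed by 1 in log2 and 95 of 100 changed by 2 were recovered, and 11 unchanged genes were called. Noise was drawn for each gene on its own, and recovery was counted without spike-in scaling. These figures therefore do not measure the CYC065 and interaction tests. In the data, 6270 genes passed for WT against SH-EP, far more than were changed in the simulation.

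The 10 genes and the lists were chosen with earlier results of these data known. A further gene list is not reported here. All 10 were named, with the 3 list genes that changed most between lines and, relative to the median gene, with CYC065, SRF, MKL1, MKL2, MYOCD, and, for the 4 members with the widest range, the 3 most correlated genes. SMTN, TNNT1, FN1, YAP1, GATA3, HAND2, MYL12A, MYL12B, ACTB, ACTG1, and MYH11 were named beyond that rule as markers or related genes. Alternatives changed the pseudocount (0.01 or 1), the filter (none or 5 FPKM), the scaling, the groups in the fit, a required 1.5-fold change, the spike-ins, the libraries, and a block on library number. Promoters came from RefSeq (GRCh38.p14) and gene positions from GENCODE on GRCh37. Figures were drawn with Python 3.11.15.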

Additional observations from a re-analysis of the deposited data

Results flagged for a closer look

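Of the 7 tested genes, 3 responded to CYC065 differently in WT and SH-EP by a test of the interaction on spike-in scaled FPKM (limma, adjusted over 11575 genes). The difference in log2 change, WT minus SH-EP, was -0.88 for TAGLN (adjusted p = 0.0417), -0.85 for TPM1 (adjusted p = 0.0334), and -0.92 for TPM2 (adjusted p = 0.0336). Of all tested genes 16.3% were lower in the same test, and the difference of the median tested gene was -0.52. On the deposited scale the differences for TAGLN, TPM1, and TPM2 were -0.45 (adjusted p = 0.0644, which did not pass), -0.41 (1.89e-05), and -0.48 (0.000187). On the spike-in scale the 3 calls share the error of each library's scaling factor, and each was lost on leaving out any of 8 of the 12 libraries. Without WT DMSO library 0, for instance, the differences were -0.66, -0.68, and -0.68.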

How the results depend on the processing

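Depth sets a limit for CNN1, MYL9, and ACTG2, whose values near 0 allow no comparison. The pseudocounts of 0.01 and 1, and, chosen after seeing the data, 0.01 on the spike-ins only, changed no direction and no call of a named gene, and moved no count of calls by over 1.5 times. The table numbers the libraries of a group from 0 to 2 and the labels from 1 to 3, so a replicate block could use only the numbers in the table. Deviations of same-numbered libraries from their group means correlated over 0.1 in 3 of 36 pairs, and in 0 of 12 comparisons in every pair. Correlations this weak cannot decide whether same-numbered libraries were paired. Every library correlated best with its own number in T58A S62A against WT, but in none of the other comparisons. With this block, chosen after seeing the data, the WT interaction had 5 calls in place of 3, with CNN2 (-0.77) and TPM4 (-0.64) added, and no other call of a named gene and no other count over the 7 genes changed. The cause of the changes below was not tested, other than that a required 1.5-fold change is a stricter rule.

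With the deposited in place of the spike-in scale, the CYC065 changes reversed in SH-EP, the WT, T58A, S62A, and double mutant lines, and the mean of the 4 MYCN lines. They were 0.79, 0.85, 0.40, 0.75, 0.18, and 0.55 for ACTA2. For TAGLN they were 0.64, 0.20, 0.088, 0.85, 0.054, and 0.30. For CNN2 they were 0.61, 0.28, 0.40, 0.27, 0.25, and 0.30, and for TPM1 0.58, 0.17, 0.32, 0.24, 0.23, and 0.24. For TPM2 they were 0.92, 0.44, 0.77, 0.81, 0.58, and 0.65, for TPM4 0.85, 0.64, 0.56, 0.67, 0.51, and 0.60, and for CALD1 0.74, 0.69, 0.55, 0.71, 0.59, and 0.63. Averaged over 5 lines, MYL12B, MYL6B, and ACTN4 were at 1.01, 0.92, and 0.91. The ACTA2 interaction in WT became 0.063.

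With the spike-in in place of the deposited scale, the DMSO changes against SH-EP reversed for CNN2 (-1.15 in WT, -0.84 in T58A, -1.77 in S62A, -0.36 in T58A S62A, and -1.03 in the mean) and TPM2 (-0.091 in WT, -1.69 in S62A, -0.24 in T58A S62A, and -0.47 in the mean), and for SRF (-0.71) and FHL1 (-0.84). Of these reversed values, CNN2 in T58A S62A and TPM2 in WT and T58A S62A did not pass the threshold. Against WT, those of CNN2 (-0.62), TPM1 (-0.46), and TPM4 (-0.61) in S62A, of TPM1 in T58A S62A (0.24), and of TPM2 in T58A (0.22) reversed. Counts against WT became 1, 7, and 3 in the T58A, S62A, and double mutant lines. The interaction counts on the deposited scale became 4, 3, and 6 in the T58A, S62A, and double mutant lines. Contractile apparatus genes became 16 lower and 0 higher between lines and 2 lower and 14 higher with CYC065. Stress fibre genes became 0 higher between lines and 3 lower and 14 higher with CYC065. SRF and its cofactors became 8 lower and 0 higher, and 4 lower and 4 higher.

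A required 1.5-fold change left 3 calls in S62A against SH-EP, and 0, 2, and 2 in the T58A, S62A, and double mutant lines against WT, 3 with CYC065 in SH-EP, and 4 in T58A S62A. With only the groups compared in the fit, 3 calls were made in T58A S62A against WT and 1 in the WT interaction. The filter at 5 FPKM gave 5 in that interaction. The spike-ins of at least 50 FPKM gave 1 with CYC065 in SH-EP, 2 in T58A, and 0 in the WT interaction. Leaving out 1 library gave 2 to 6 calls with CYC065 in SH-EP, with 2 without CYC065 library 2, and 0 to 5 in the WT interaction. Uncalled changes that turned sign then were CNN2 in T58A against WT (-0.065 to 0.076), TPM4 there (-0.0050 to 0.037), and CALD1 in T58A S62A against WT (-0.0033 to 0.037).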
